A study of Mus musculus with 4 samples.

Results

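Class 5 is 1 of 14 groups of nuclei that the authors of this single-nucleus ATAC-seq study assigned in their deposited score table, and it held 538 of 7846 nuclei. Single-nucleus ATAC-seq marks open chromatin: a transposase cuts accessible DNA, and barcodes tie each read to a nucleus. Members were taken by the deposited class number alone, with no value measured here, and the working name was fetal luminal-like nuclei with low AP-1 motif scores. The nuclei came from mammary glands of wild-type CD1 mice, an outbred strain, sorted for EpCAM, an epithelial surface protein, and against a panel of lineage markers. There were 2 fetal libraries at embryonic day 18 and 2 adult libraries from mice of 8 weeks, labelled as biological replicates. No agent or engineered allele was named in the labels, and the labels did not say how many animals were pooled in a library. Class 5 held 201 of 882 nuclei in fetal replicate 1 (22.8%, exact binomial 95% interval 20.1 to 25.7%) and 337 of 1695 in fetal replicate 2 (19.9%, 18.01 to 21.9%), a mean of 21.3% ± 2.06 (SD, n = 2). No class 5 nucleus was found among 2465 and 2804 adult nuclei, which allows shares of up to 0.122% and 0.107%, so stage and class cannot be told apart. Intervals and limits cover counting error only.

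The mammary epithelium has luminal cells, which line the ducts and make milk, and basal cells, which contract and carry keratins 5 and 14. AP-1 is a family of paired transcription factors (Fos and Jun proteins, with the related Batf and Bach factors) that bind TGANTCA and its variants in many enhancers and respond fast to growth factors, stress and tissue handling. Nuclear factor I (NFI) and SOX proteins bind other letters and are known in developing epithelia, and grainyhead-like (GRHL) factors open chromatin at epithelial enhancers. A motif score for a nucleus says whether regions holding that motif carry more or fewer reads than matched regions do, so it reads accessibility and not the amount of the factor.

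The sequences below show these letters in regions called in class 5, just before genes whose start lies in the region. They were chosen after values were seen, from the regions called lower in class 5 that hold the AP-1 letters (first 5) and from those called higher that hold the SOX letters ACAATGG or ACAAAGG (last 4), on either strand. Each is the 250 bases before the RefSeq start of the gene, 5′ to 3′ along the gene's strand in build GRCm38.p6 (mm10), with the letters in capitals. A match is a description of the letters and not a bound site.
Cryba2 (chr1:74893144-74893393, minus strand): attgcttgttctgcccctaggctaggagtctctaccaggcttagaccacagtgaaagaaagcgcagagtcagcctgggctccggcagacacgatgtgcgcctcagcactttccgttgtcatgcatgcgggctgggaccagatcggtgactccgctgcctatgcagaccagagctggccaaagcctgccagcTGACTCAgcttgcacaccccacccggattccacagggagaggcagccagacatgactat
Sdcbp2 (chr2:151572373-151572622, plus strand): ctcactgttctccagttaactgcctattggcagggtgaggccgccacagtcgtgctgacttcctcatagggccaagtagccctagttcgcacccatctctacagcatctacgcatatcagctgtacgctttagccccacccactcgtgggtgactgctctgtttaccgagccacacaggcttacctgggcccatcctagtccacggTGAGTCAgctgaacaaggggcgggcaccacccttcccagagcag
Sprr1a (chr3:92485882-92486131, minus strand): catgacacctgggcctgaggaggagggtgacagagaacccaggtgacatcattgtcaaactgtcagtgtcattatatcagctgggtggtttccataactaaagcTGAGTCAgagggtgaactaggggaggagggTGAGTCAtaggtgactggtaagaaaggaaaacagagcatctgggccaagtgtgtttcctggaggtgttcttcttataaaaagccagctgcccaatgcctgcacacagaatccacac
Arhgap40 (chr2:158512546-158512795, plus strand): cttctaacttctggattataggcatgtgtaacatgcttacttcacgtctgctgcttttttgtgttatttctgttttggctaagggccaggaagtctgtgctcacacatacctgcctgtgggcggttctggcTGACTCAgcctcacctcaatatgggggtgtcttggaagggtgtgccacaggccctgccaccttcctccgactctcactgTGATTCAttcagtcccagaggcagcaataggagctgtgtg
Dhrs9 (chr2:69380212-69380461, plus strand): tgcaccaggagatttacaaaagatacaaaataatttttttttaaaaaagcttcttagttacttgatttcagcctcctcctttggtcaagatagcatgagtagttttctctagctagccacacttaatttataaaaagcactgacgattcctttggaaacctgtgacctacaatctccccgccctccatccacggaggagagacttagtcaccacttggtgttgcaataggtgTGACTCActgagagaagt
Chdh (chr14:30021053-30021302, plus strand): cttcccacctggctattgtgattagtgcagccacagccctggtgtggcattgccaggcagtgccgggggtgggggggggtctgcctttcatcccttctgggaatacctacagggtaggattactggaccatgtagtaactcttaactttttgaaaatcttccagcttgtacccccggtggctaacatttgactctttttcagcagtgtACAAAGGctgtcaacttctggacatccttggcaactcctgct
Atp9a (chr2:168734340-168734589, minus strand): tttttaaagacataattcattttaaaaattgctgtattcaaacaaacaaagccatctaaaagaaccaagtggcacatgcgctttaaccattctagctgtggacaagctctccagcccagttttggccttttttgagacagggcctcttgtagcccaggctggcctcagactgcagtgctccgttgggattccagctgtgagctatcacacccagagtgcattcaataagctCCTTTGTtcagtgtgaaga
Sox6 (chr7:115824711-115824960, minus strand): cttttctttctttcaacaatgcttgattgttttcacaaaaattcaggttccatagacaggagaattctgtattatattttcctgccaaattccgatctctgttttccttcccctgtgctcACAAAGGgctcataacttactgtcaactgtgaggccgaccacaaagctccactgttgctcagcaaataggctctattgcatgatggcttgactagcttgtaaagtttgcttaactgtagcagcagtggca
Srms (chr2:181213172-181213421, minus strand): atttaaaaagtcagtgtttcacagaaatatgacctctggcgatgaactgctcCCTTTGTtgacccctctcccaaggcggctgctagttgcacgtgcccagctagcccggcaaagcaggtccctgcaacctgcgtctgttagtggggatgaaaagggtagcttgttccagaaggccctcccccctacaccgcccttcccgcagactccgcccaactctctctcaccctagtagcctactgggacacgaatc
Reads over the whole 1000-base region around each of these starts are given next, with fetal replicate 1 before fetal replicate 2, an order kept throughout. The promoter region of Sprr1a, which encodes a cornified envelope protein, held 2 and 7 reads of class 5 against 33 and 96 reads of the other fetal nuclei. Its letters begin 146 and 116 bases before the start. That of Cryba2, a crystallin gene, held 0 and 3 against 31 and 80 reads, and that of Sdcbp2, a syntenin-family scaffold gene, 0 and 4 against 22 and 70. Arhgap40, a GTPase-activating protein gene, had 4 and 4 against 45 and 121 reads, and Dhrs9, a retinol dehydrogenase gene, 2 and 11 against 34 and 126. After scaling to reads in promoter regions, all 5 were lower in class 5 in both libraries, for Sprr1a at 6.83 and 10.3 against 28.4 and 34.2 CPM (counts-per-million). The distal region over the Chdh start, a choline dehydrogenase gene, had 21 and 60 reads of class 5 against 22 and 70 of the others, and the region at an Sox6 start had 34 and 59 against 51 and 129. For Atp9a, a phospholipid flippase gene, the log2 ratios were 1.09 and 1.08, and for the promoter region of Srms, a tyrosine kinase gene, 1.02 and 1.34.

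Class 5 summed to 1118413 and 2802747 reads and the other fetal nuclei to 4909755 and 12999161. Its nuclei had fewer reads (medians of 4566 and 6707, against 5808 and 7604 in the other fetal nuclei) and a larger median share of reads in promoter regions (25.8% and 24.2% against 23.8% and 22.1%). The share in distal regions was smaller (39.4% and 39.8% against 41.6% and 41.7%). No barcode was shared between libraries, and neither fetal library lacked the class. The authors made the classes from the accessibility of these nuclei, so every class 5 value against other nuclei describes the class and tests nothing. No p-value is given for that reason.

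The luminal name was checked on gene spans, meaning a gene with 2000 bases on either side, in CPM of all reads of the nuclei summed. The 11 luminal keratin and junction genes summed to 654 and 691 CPM in class 5, against 877 and 855 CPM in class 9, the most numerous fetal class. In classes 12 and 4 they summed to 423 and 402, and 415 and 432 CPM. Class 5 therefore lay between class 9 and the other large fetal classes in both libraries. Adult luminal progenitor classes 3 and 7 summed to 1145 and 1039 CPM, adult basal classes 1 and 8 to 388 and 330 CPM. The 12 basal genes summed to 559 and 538 CPM in class 5, close to 579 and 543 CPM in class 9, and under 702 and 755 CPM in class 12 and 701 and 758 CPM in class 4. The 10 mature luminal genes were at 354 and 360 CPM in class 5 and 371 and 423 CPM in class 9. In class 12 they were at 348 and 380 CPM. Class 4 had 375 and 401 CPM, more than class 5 in both libraries. Adult mature luminal classes 2 and 11 had 1104 and 1098 CPM. The 12 luminal progenitor genes were at 460 and 503 CPM in class 5, beside 478 and 475 CPM in class 9, 283 and 283 CPM in class 12 and 261 and 253 CPM in class 4. Class 5 thus had less of the luminal keratin and mature luminal lists than class 9 in both libraries, and neither more nor less of the luminal progenitor list in both.

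Stromal, endothelial and glial markers were near their level in class 9, immune markers were below it, and keratinocyte markers summed to slightly more. The 8 stromal genes summed to 138 and 130 CPM in class 5 and to 133 and 135 CPM in class 9, against 808 and 618 CPM in fetal class 6. The 6 immune genes summed to 46.5 and 79.9 CPM, against 108 and 89.2 CPM in class 9, with Lyz2 at 0 and 1.43 CPM. Lum, a stromal proteoglycan gene, was at 0 and 2.50 CPM. The 8 keratinocyte genes summed to 155 and 159 CPM in class 5, above 133 and 127 CPM in class 9, 133 and 129 CPM in class 12 and 128 and 127 CPM in class 4, and beside 164 and 154 CPM in adult classes 3 and 7. Ivl, the involucrin gene of keratinocytes, was at 0 and 0.71 CPM, and Krt1 at 6.26 and 9.28 CPM against 9.17 and 7.96 CPM in class 9. The part of these markers in the values of class 5 was not tested. The 6 endothelial genes summed to 111 and 137 CPM, and the 9 melanocyte and Schwann genes to 442 and 387 CPM against 415 and 408 CPM in class 9.

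The largest motif differences of class 5 were its low AP-1 scores. The median Fos motif score was −5.25 and −6.14 in class 5 and −0.97 and −1.01 in the other fetal nuclei, differences of −4.28 and −5.13 score units. A motif was called where the medians differed by at least 1 unit the same way in both fetal libraries, which held for 13 of 388 distinct score columns (3.35%), 2 higher (0.515%) and 11 lower (2.84%). The 11 were Fos, Smarcc1, Bach1, Bach2, Fosb, Jund, Junb, Nfe2l2, Fosl1, Batf (whose column equals that of Batf3) and Jun. Smarcc1, a chromatin remodeller subunit whose score lay near that of Fos, differed by −4.05 and −5.18, Bach1 by −3.59 and −4.52, and Jun, the smallest of them, by −1.40 and −1.69. All 11 belonged to the list of 15 distinct AP-1 and like motifs, whose median difference was −2.31 and −2.53, against 0.05 and 0.03 over all motifs. Its highest member, Mafk, differed by 0.10 and 0.03.

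Among the 14 classes class 5 had the lowest Fos score. Its pooled median was −5.74, and the next lowest was class 12 at −4.15. By library class 12 was at −3.36 and −4.26, class 9 at −0.85 and −0.67, and class 4 at 0.18 and −0.05. Adult class 3 was at −0.47 and −0.71. The gap between class 5 and class 12 was −1.89 and −1.88, smaller than the gap of −4.40 and −5.46 to class 9.

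**Figure D1:**
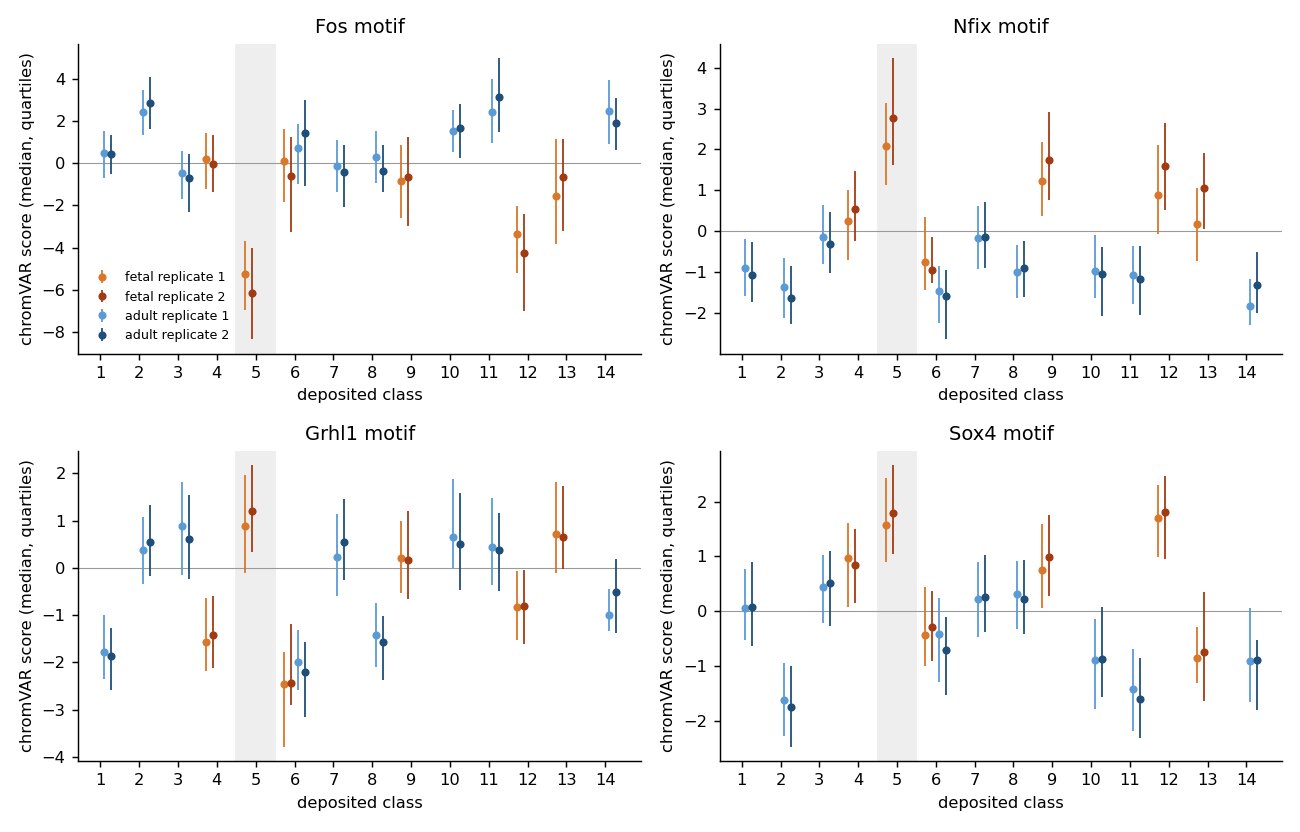
Motif scores of the Fos, Nfix, Grhl1 and Sox4 motifs in each deposited class (x axis, class 5 shaded) and library (colour), as the median with bars from the lower to the upper quartile over nuclei, on a linear score axis; a library with under 20 nuclei of a class has no point. Fos medians of class 5, at −5.25 and −6.14, lie lowest, while Nfix medians, at 2.08 and 2.76, lie highest.

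Nuclei of class 5 were not uniform in Fos score. In fetal replicate 1, 60.7% of them lay inside the range that holds 5 to 95% of class 9 nuclei, and 54.3% did in fetal replicate 2, the rest lying below it. The shares inside the range of class 12 were 81.6% and 87.2%, and inside that of class 4 they were 22.9% and 18.4%. For the Trp63 motif, bound by the basal factor p63, 92.0% of class 5 nuclei in each library lay inside the range of class 9, and only 30.3% and 35.0% inside that of class 12. Class 5 thus overlapped class 12 in Fos score and class 9 in Trp63 score.

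The Fos score followed the number of reads in a nucleus. Within class 5, Spearman's rank correlation between the Fos score and reads was −0.58 (201 nuclei) and −0.70 (337 nuclei), points that share a library. In nuclei of 2000 to 4000 reads the class 5 median was −4.25 and −3.69, against −0.61 and −0.05 in class 9. In nuclei of 4000 to 8000 reads it was −5.70 and −5.88, against −0.80 and −0.47. In nuclei of at least 8000 reads it was −8.37 and −8.44, against −1.22 and −1.20. Class 5 lay below class 9 in each of these ranges in both libraries. Class 12 had −2.02 and −2.37, then −3.79 and −3.76, then −3.85 and −7.07 over the same ranges, above class 5 in each. The rank correlation between Fos and the promoter share of reads was −0.12 and −0.09, and between Fos and Bach1, motifs that share letters, 0.95 and 0.95.

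Grhl1 and Nfix were the motifs called higher. Nfix was at 2.08 and 2.76 in class 5 against 0.91 and 1.28 in other fetal nuclei, differences of 1.17 and 1.48. Grhl1 was at 0.89 and 1.21 against −0.26 and −0.50, differences of 1.15 and 1.71. Both had their highest pooled median of the 14 classes in class 5, at 2.43 for Nfix (next class 9 at 1.49) and 1.09 for Grhl1 (next adult class 3 at 0.697). The other NFI motifs were not called: Nfia differed by 0.47 and 0.95, and Nfic by 0.46 and 1.06. Only 7.96% and 13.6% of class 5 nuclei lay above the range of class 9 for Nfix. Nfix and Grhl1 scores were weakly related among class 5 nuclei, with rank correlations of 0.27 and 0.34. Both scores also followed reads in a nucleus, with rank correlations of 0.21 and 0.41 for Nfix and 0.21 and 0.29 for Grhl1. Class 5 lay above class 9 for both scores in each range of reads used for Fos, in both libraries. In nuclei of 2000 to 4000 reads Nfix was at 1.59 and 1.71 against 0.77 and 1.196 in class 9. Grhl1 was at 0.57 and 0.64 there, against 0.17 and 0.11. In nuclei of at least 8000 reads Nfix was at 2.64 and 3.65 against 1.73 and 2.25. The part of reads in the differences from all other fetal nuclei, and in the relation of the scores, was not tested.

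SOX motifs lay higher by less than 1 unit. All 12 had differences above 0 in both libraries, with a median of 0.43 and 0.61, and none was called. Sox4 had the largest mean difference, 0.80 and 0.80, with medians of 1.57 and 1.79 in class 5, and its rank correlation with reads in class 5 nuclei was 0.41 and 0.45. Against class 12 the SOX median difference was 0.01 and 0.09, with none of the 12 called, and Sox4 in class 5 (pooled 1.72) was below class 12 (1.76). A list of 13 distinct ETS motifs, which does not hold the whole family (Elf1 to Elf5, Ehf, Ets1, Ets2, Etv1, Etv4, Etv5, Erg and Spdef), had every member above 0 in both libraries with a median of 0.26 and 0.19, and Ctcf, the insulator factor, was at 0.34 and 0.46. None of these passed the threshold.

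The motifs called against class 9 were all on the AP-1 list, while those called against class 12 came from several families. Against class 9, 11 motifs were lower (2.84%) and 0 higher. With replicate 2 alone 2 were higher. Against class 12, 7 were higher (1.80%) and 8 lower (2.06%). Of the 8 lower, 6 were on the AP-1 list, namely Fos, Smarcc1 (−1.78 and −1.57), Bach2, Bach1, Jund and Junb (−1.18 and −1.10), and the others were Trp73, at −3.14 and −3.80, and Trp63, at −2.56 and −3.24. Among the 7 higher Grhl1 differed by 1.73 and 2.02, Nfix by 1.21 and 1.17, and Elf5, a luminal progenitor and alveolar factor, by 1.10 and 1.24. The 7 also held 2 FOX (forkhead) motifs and 1 from a list of Snai, Zeb and Twist motifs. All 16 distinct FOX motifs lay above 0 in both libraries against class 12, with a median of 0.84 and 0.72. Against the other fetal nuclei all 16 did so too, with a median of 0.23 and 0.36 and none called. The FOX median against class 9 was 0.03 and 0.18. Against class 4, 12 were higher (3.09%) and 13 lower (3.35%), with Fos at −5.43 and −6.09, Trp63 at −3.48 and −3.55, and Grhl1 at 2.47 and 2.63.

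Distal regions, the authors' 1000-base intervals away from promoter regions, differed more than promoters did. Reads were summed over class 5 and over the other fetal nuclei of the same library, scaled to CPM of reads in distal regions, and compared as log2 ratios after adding 2 CPM. Regions entered when the 4 sums averaged 20 reads or more. Of the 28475 that did, 568 were at least 2-fold higher in class 5 in both libraries (1.99%) and 1947 at least 2-fold lower (6.84%), while 183 passed 2-fold in opposite directions. The comparison group is larger, so a minimum on reads admits more regions that are low in class 5: with a mean of at least 10 CPM in its place, a choice made after the data were seen, 876 were higher and 891 lower of 25589, which moves the higher share of calls from 22.6% to 49.6%. At 4-fold the counts were 3 higher and 295 lower, and with the CPM minimum 8 and 76. Scaled to CPM of all reads, with the minimum on reads and 2-fold, 274 were higher and 1331 lower. Ratios of the 2 libraries had a Pearson r of 0.443 across regions, which are not independent replicates. Large differences were thus mostly toward fewer reads in class 5, while the balance of 2-fold calls depended on the filter.

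**Figure D2:**
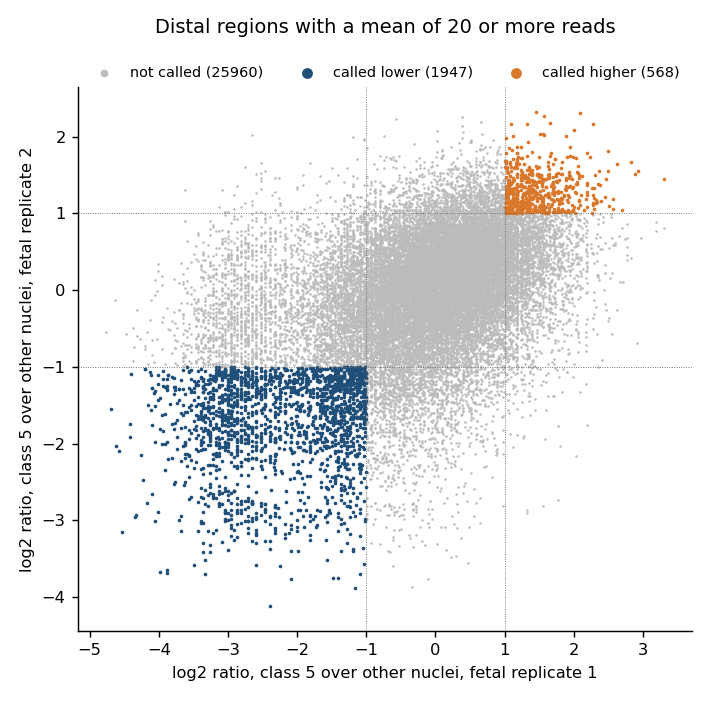
Log2 ratio of class 5 over the other fetal nuclei in fetal replicate 1 (x axis) and fetal replicate 2 (y axis), 1 point for each of 28475 distal regions; dotted lines mark 2-fold. Of the 568 regions called higher 3 pass 4-fold in both libraries, and of the 1947 called lower 295 do.

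Of the 5 regions highest in class 5 with a mean of at least 50 reads, 2 lie in genes. The region at chr7:37292657-37293656, 24367 bases from Zfp536, a zinc finger repressor gene, had 37 and 62 reads (85.1 and 56.1 CPM) against 33 and 81 reads (16.6 and 15.5 CPM), log2 ratios of 2.23 and 1.73. In class 9 it was at 23.2 and 22.2 CPM, in adult basal classes at 0 and 3.10 CPM. The region at chr2:165281571-165282570 inside Slc35c2, a nucleotide sugar transporter gene, was at 71.3 and 76.0 CPM against 21.1 and 20.6 CPM. It was at 0 and 6.98 CPM in class 12, and at 54.6 and 34.6 CPM in adult classes 3 and 7, so it was open in adult luminal progenitor classes as well. The region at chr12:110689963-110690962, 74 bases from Hsp90aa1, a heat shock chaperone gene, was at 78.2 and 63.3 CPM against 17.1 and 21.8 CPM. The others were chr5:65982018-65983017, 4532 bases from Chrna9 (1.53 and 1.49), and chr15:78986395-78987394 inside Triobp, an actin-binding protein gene (69.0 and 59.7 CPM against 23.6 and 19.9 CPM). In each of the 5 the class 5 level exceeded those of classes 9, 12 and 4 in both libraries.

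Regions lowest in class 5 were nearly empty there. The region at chr6:29082547-29083546, 8671 bases from Lep, the leptin gene, had 0 and 4 reads in class 5 against 88 and 251 in the other fetal nuclei, a pooled ratio of 18.1-fold lower (95% counting interval 7.00 to 66.7). It was at 66.4 and 69.8 CPM in class 12 and 73.3 and 79.8 CPM in adult basal classes. The region at chr6:86180137-86181136, 13902 bases from Tgfa, an EGF receptor ligand gene, had 0 and 2 against 27 and 173 reads, 21.3-fold lower (5.83 to 177). That at chr7:80166325-80167324, 19546 bases from Sema4b, had 0 and 2 against 62 and 150, 22.6-fold lower (6.18 to 188). These intervals take reads as independent and pool both libraries. They also leave out that the regions were picked as the lowest, so they are likely too narrow. Inside Msmo1, a sterol synthesis gene, chr8:64725738-64726737 had 0 and 4 against 77 and 218 reads, and inside Abca4, a retinoid transporter gene, chr3:122130339-122131338 had 0 and 2 against 76 and 141. The last 2 were also low in class 12, at 15.6 and 20.9 CPM and at 7.81 and 10.5 CPM, against 42.9 and 43.3 CPM and 49.8 and 35.0 CPM in class 9.

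Both sets lay far from promoters, at medians of 42.9 kb (higher) and 46.6 kb (lower) from the nearest promoter region, against 37.6 kb for all regions tested. A gene was touched by 53.9%, 49.2% and 54.0%. The fetal levels of the called sets were fixed by the call and the read minimum and are given as a description. Regions called lower had a mean level, over the mean of all tested regions, of 0.15 and 0.22 in class 5, 0.79 and 0.84 in class 9, 0.78 and 0.70 in class 12, and 1.26 and 1.24 in class 4. In the adult libraries, which took no part in the call, it was 1.40 and 1.38 in basal, 1.27 and 1.29 in mature luminal and 0.95 and 0.90 in luminal progenitor classes. Regions called higher were at 1.72 and 1.63 in class 5 and 0.67 and 0.72 in class 9. Class 12 had 0.67 and 0.74 there, and class 4 had 0.43 and 0.46. In the adult classes the regions called higher were at 0.66 and 0.69 (luminal progenitor), 0.41 and 0.41 (basal) and 0.36 and 0.40 (mature luminal). Among these 3 adult groups, which leave out adult nuclei of other classes, the luminal progenitor classes had the highest relative level of the regions higher in class 5. They also had the lowest relative level of the regions lower in it. Without division by all tested regions, the mean in the lower regions was 19.7 and 18.5 CPM in luminal progenitor and 20.3 and 19.5 CPM in mature luminal classes. The median there was 12.5 and 12.2 CPM in luminal progenitor classes, above 11.8 and 12.1 CPM in mature luminal classes.

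**Figure D3:**
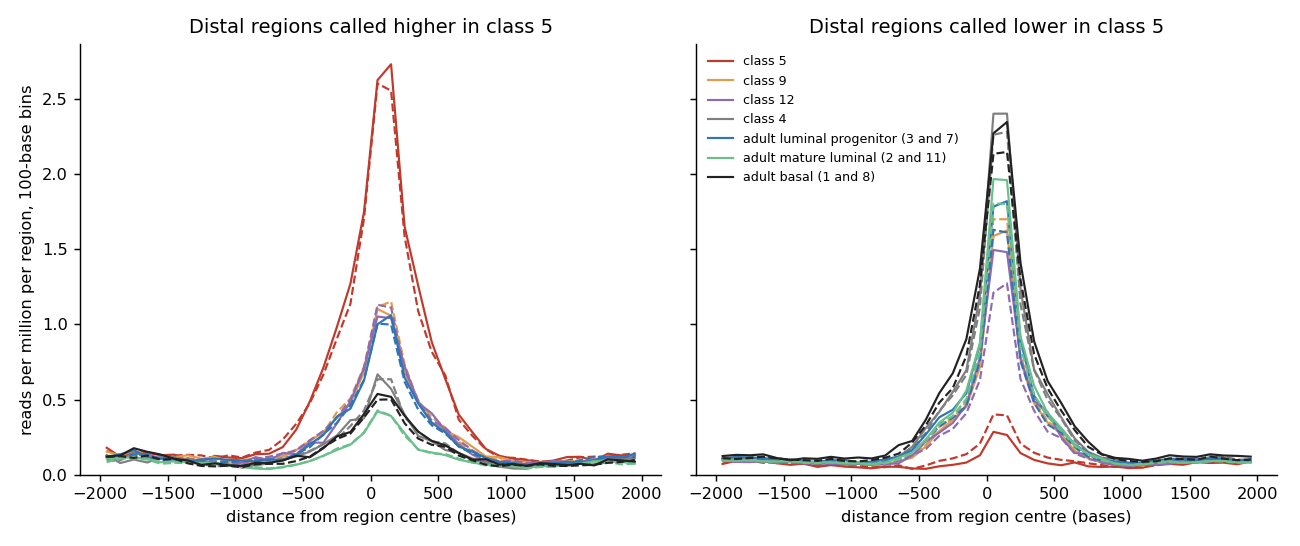
Reads-per-million per region in 100-base bins (y axis, linear from 0) by distance from the region centre (x axis, bases), for distal regions called higher (left) and lower (right) in class 5, with 1 line for each group of nuclei and library. In the bin at 50 bases class 5 stands at 2.62 and 2.60 in the higher regions against 1.10 and 1.12 in class 9, and at 0.29 and 0.40 in the lower regions against 1.59 and 1.70.

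Against single classes fewer regions could be tested, and the groups differ in size. Class 5 had 435025 and 1105836 reads in distal regions, class 9 had 1165828 and 2745737, class 12 had 256181 and 859929, and class 4 had 408707 and 1276343. The read minimum therefore admits regions by the larger group, which is class 9 against class 5 but class 5 against class 12, so the balance of higher and lower calls cannot be compared between these contrasts. Against class 9, 303 of 16197 distal regions were higher (1.87%) and 830 lower (5.12%). Against class 12, 220 of 5886 were higher (3.74%) and 137 lower (2.33%), with a median log2 ratio over all regions tested of 0.11 and 0.12. Against class 4, 667 of 7576 were higher (8.8%) and 512 lower (6.76%), with a median of 0.22 and 0.25, beside −0.01 and 0.04 against class 9. Against adult classes 3 and 7, with 2-fold asked between every pair of libraries, 943 of 17245 were higher (5.47%) and 3431 lower (19.9%), a contrast in which stage, library and class cannot be told apart.

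Promoter regions differed little. Of 12822 tested, 16 were higher (0.125%) and 162 lower (1.26%), and 26 passed 2-fold in opposite directions. The minimum on reads bears on promoters too. Replacing it by 10 CPM on average gave 60 higher and 187 lower of 14579, and against the mean of classes 4, 9 and 12 the counts were 43 and 196. Scaled to CPM of all reads, which moved the median ratio from −0.01 and 0.00 to 0.11 and 0.14, 15 were higher and 60 lower. The promoter of Cldn9, a tight junction claudin gene, at chr17:23683980-23684979 was at 105.9 and 97.4 CPM in class 5 against 38.8 and 38.5 CPM, log2 ratios of 1.40 and 1.30. It was at 0 and 6.56 CPM in adult classes 3 and 7. The others of the 4 highest lay 1261 bases from Tspan15, a tetraspanin gene (1.92 and 1.27), in Cdk5rap1 (1.14 and 1.29) and in Knstrn, a kinetochore protein gene (1.01 and 1.14). Of the 5 lowest, 4 are given here. The region in Tmem63a, a mechanosensitive channel gene, had 2 and 8 reads against 51 and 147 (−2.38 and −1.98). Another lay 735 bases from Noct, a circadian phosphatase gene (−2.55 and −1.95). The region 25001 bases from Top1, its nearest gene, had −2.01 and −1.78. That in S100a3, a calcium-binding protein gene, had −1.73 and −2.21. None of the promoter regions reached 4-fold higher, and 21 reached 4-fold lower.

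The letters shown at the opening were counted wherever a 300-base RefSeq window (250 bases before to 50 after a start) lay inside a region. Such windows lay in 16 of 568 distal regions called higher, 34 of 1947 called lower and 1322 of 28475 tested. The shares below therefore cover only the few distal regions that hold an annotated start. The AP-1 letters TGANTCA were in 9 of 37 promoter regions called lower (24.3%) against 374 of 7557 tested (4.95%), and in 12 of 34 distal regions called lower (35.3%) against 151 of 1322 (11.4%). Of all 32851 windows, 7.8% hold them. They were in 0 of 16 distal regions called higher, which allows up to 18.8%. Other letters were also more frequent in the distal regions called lower: the RUNX letters TGTGGTT were in 6 of 34 (17.6%) against 64 of 1322 (4.84%), and the TEAD letters GGAATG in 11 of 34 (32.4%) against 224 of 1322 (16.9%). Of all windows 5.27% and 14.7% hold them. The ETS letters CAGGAAG, which share GGAA with those of TEAD, were in 6 of 34 (17.6%) against 190 of 1322 (14.4%), with 13.3% of all windows holding them. The TEAD letters were also in 4 of the 16 distal regions called higher (25.0%), so they were frequent in both sets. The SOX letters were in 6 of the 16 distal regions called higher (37.5%) against 136 of 1322 (10.3%), with 9.3% of all windows holding them. They were in 4 of 34 distal regions called lower (11.8%) and in 0 of 37 promoter regions called lower, which allows up to 8.11%, and in 1 of 6 promoter regions called higher (16.7%) against 465 of 7557 tested (6.15%). The windows in called distal regions had a median GC content of 51.1% both ways, against 56.7% for those in all tested. Windows in promoter regions called lower had 53.7% against 62.7%. The part of GC content in these shares was not tested, and that of whole regions was not measured. TGANTCA reads the same on both strands and lies within the longer motif of Bach and Nfe2 factors. The palindromic NFI motif was in at most 2 regions of any set, so it gave no comparison.

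Gene spans gave smaller ratios, and 0.5 log2 in both libraries was used as the threshold. Of 16768 genes tested, 292 were higher in class 5 (1.74%) and 420 lower (2.5%), with a median ratio over all genes of 0.05 and 0.07. With TMM scaling, a trimmed mean of ratios, the counts were 172 and 568, so that higher genes were 23.2% of calls instead of 41.0%. With a mean of at least 10 CPM they were 256 and 204 (55.7%). The balance of higher and lower genes therefore moved with scaling and filter. Among the given markers, the 10 highest, the 10 lowest and called list members, no called gene changed sign under a setting tried. Genes named only from lists added after values were seen, or only for calls against single classes, were not put through these settings.

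The markers given with the class were open in it but not in it alone. Csn3, the kappa-casein milk protein gene at chr5:87925579-87932550, had 61 and 167 reads (54.5 and 59.6 CPM) in class 5 against 116 and 488 (23.6 and 37.5 CPM), log2 ratios of 1.14 and 0.64. It was at 26.4 and 46.3 CPM in class 9, 46.1 and 37.2 CPM in class 12 and 10.3 and 30.2 CPM in class 4. It was called higher against class 4 but not against class 9 or 12, and was not called when the gene was counted without its flanks. Gpr37l1, an orphan receptor gene known from glia, at chr1:135160250-135167681, was at 22.4 and 31.4 CPM against 11.0 and 15.5 CPM (0.91 and 0.93). Class 12 had 19.1 and 30.3 CPM, and the span overlaps Arl8a, so reads of the 2 genes cannot be told apart. Gpr37l1 was not called against the mean of classes 4, 9 and 12. Col9a3, a cartilage collagen gene at chr2:180598102-180622192, was at 115 and 113 CPM against 82.5 and 73.9 CPM (0.47 and 0.61), which was not called, and at 106 and 105 CPM in class 12. Its span overlaps Ogfr and Tcfl5, whose reads cannot be told apart from its own. Neither Gpr37l1 nor Col9a3 separated class 5 from class 12 beyond the threshold.

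**Figure D4:**
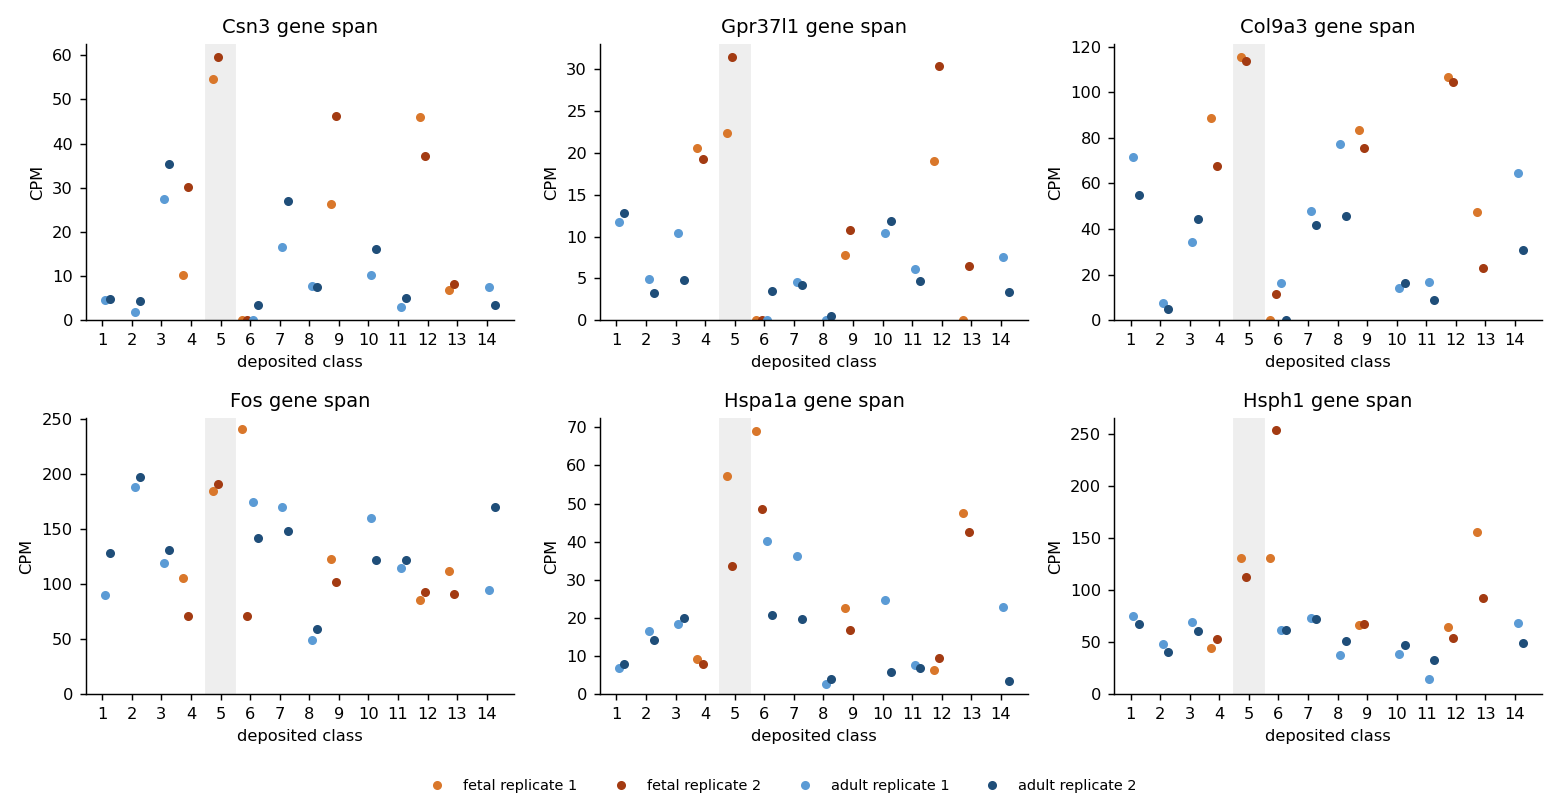
Gene-span reads in CPM (y axis, linear from 0) for Csn3, Gpr37l1, Col9a3, Fos, Hspa1a and Hsph1 in each deposited class (x axis, class 5 shaded), 1 point for each library with at least 20 nuclei of the class. Fos stands at 185 and 191 CPM in class 5 against 123 and 102 CPM in class 9, and the Col9a3 points of classes 5 and 12 lie close together.

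The 10 highest genes had ratios near 1, and the spans of 9 of them reach into another gene, so reads there cannot be told apart. Strc, an inner ear protein gene whose span reaches Ckmt1, had ratios of 1.37 and 1.00. Chst10, a sulfotransferase gene, was at 52.8 and 43.5 CPM against 25.5 and 21.2 CPM (1.00 and 0.98). Srms, whose span reaches the related kinase gene Ptk6, had 0.93 and 1.05, and Pipox, a peroxisomal oxidase gene, 0.85 and 1.16. Apeh, an acylpeptide hydrolase gene, was at 47.4 and 48.9 CPM against 25.7 and 25.6 CPM. Hspa1a, an inducible HSP70 gene with the near-identical copy Hspa1b, was at 57.2 and 33.5 CPM against 21.0 and 16.1 CPM (1.37 and 0.98). Of its span the 2000 bases after the end had ratios of 1.78 and 1.41 and those before the start 0.08 and 0.09, so the excess lay in the body and on the 3′ side.

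The 10 lowest genes held 2 to 52 reads of class 5 in a library (1.43 to 18.6 CPM), against 10.4 to 48.1 CPM in the other fetal nuclei. The spans of Col17a1, Bco2, Nmu, Ltb4r1 and Klk11 reach into another gene, so reads there cannot be told apart. Col17a1, which encodes a hemidesmosome collagen, was at 14.3 and 18.6 CPM against 45.0 and 48.1 CPM (−1.53 and −1.28), and both of the 2 distal regions tested inside it were called lower, where 6.84% of all were. Bco2, a carotenoid oxygenase gene, had 2 and 12 reads against 51 and 212 (−1.71 and −1.54). Nmu, the neuromedin U gene, had 2 and 12 reads against 57 and 173, and Klk11, a kallikrein gene, 3 and 14 against 92 and 180. Kl, which encodes the FGF co-receptor klotho, had −1.38 and −1.32, Slc23a4 −1.34 and −2.39, Cpa5 −1.91 and −1.27, and Ltb4r1, a leukotriene receptor gene, −1.49 and −1.19. Cacna1i, a calcium channel gene, was at 12.5 and 12.1 CPM against 31.6 and 30.0 CPM, and Itgb2, the leukocyte integrin beta gene, at 8.94 and 8.21 CPM against 22.00 and 24.3 CPM.

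Luminal progenitor genes were at the level of class 9. Of 10 tested, 2 were higher than in other fetal nuclei, where 1.74% of all genes were, and 0 lower: Csn3 and Ehf, an epithelial ETS factor gene, at 122 and 143 CPM against 80.2 and 91.5 CPM (0.59 and 0.64). The median was 0.08 and 0.62, against 0.05 and 0.07 for all genes. Of 5 distal regions tested in Ehf 1 (chr2:103268144-103269143) was called higher, at 1.18 and 1.47, and of 2 in Elf5 1 (chr2:103436002-103437001), at 1.76 and 1.40, where 1.99% of all were, although the Elf5 span was at 0.07 and 0.72. Kit, the stem cell factor receptor gene, had 1.14 and 0.21. Cd14, also on the list, had −1.79 and −0.14 and was not called. Of the 10, 6 were above 0 in both libraries and 2 below. Against class 12, 3 of 8 were higher, where 5.07% of all genes were: Kit (1.27 and 0.75), Ehf (3.07 and 1.28) and Wfdc18 (0.52 and 0.97). Against class 9, Aldh1a3, a progenitor aldehyde dehydrogenase gene, was the 1 of 9 called lower, at −0.90 and −0.65, where 1.76% of all genes were.

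Luminal keratin and junction genes set class 5 apart from class 12 rather than from the fetal nuclei as a whole. None of 11 was called against the other fetal nuclei. Against class 12, 7 of 11 were higher, among them Krt8 (1.12 and 0.68), Krt18 (1.96 and 1.63), Cldn3 (1.39 and 1.67) and Epcam (0.57 and 0.73), where 5.07% of all genes were. Against class 4, 5 were higher, where 11.7% of all genes were and the median ratio of all genes was 0.19 and 0.20. Against class 9, 2 were lower, Krt8 (−0.69 and −0.63) and Krt7 (−1.49 and −0.60), where 1.76% of all genes were.

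Basal genes divided by member. Krt5 (1.79 and 6.07 CPM against 11.0 and 13.2 CPM), Krt17 (−1.19 and −0.95) and Acta2, the smooth muscle actin gene (−0.93 and −1.19), were lower, 3 of 12, where 2.5% of all genes were, and the median was −0.06 and −0.25. Against class 9, 1 of 12 was lower, Krt17 (−1.25 and −1.06), where 1.76% of all genes were. Krt5 (−1.56 and −0.37) and Acta2 (−0.69 and −0.15) were not called against class 9. Of the 12, 1 was higher than in class 9, where 1.55% of all genes were. The 1 distal region tested in Acta2 (chr19:34243634-34244633) had 0 and 0 reads in class 5 against 37 and 58 in the other fetal nuclei. Krt14 had −0.34 and −0.79, and Trp63, the p63 gene, −0.35 and −0.51, with calls against class 12 (−0.89 and −0.98, where 2.37% of all genes were lower) and class 4 (−0.72 and −1.03, where 4.43% were). Of the 12, 6 were below 0 in both libraries and 4 above, with the smooth muscle myosin gene Myh11 highest (0.83 and 0.20, not called). Krt17 was not called when its flanks were left out. Of 10 mature luminal genes Areg, the amphiregulin gene, was lower (−1.91 and −0.99), and Esr1 and Foxa1 were at −0.35 and −0.41 and at −0.29 and −0.42.

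Gene spans of the factors themselves showed few calls. Of 13 AP-1 genes 1 was called, beside shares of 1.74% higher and 2.5% lower over all genes. It was higher: Fos had 207 and 536 reads (185 and 191 CPM) against 579 and 1193 (118 and 91.8 CPM), ratios of 0.64 and 1.04, and was also higher against classes 9, 12 and 4. The ratio was 0.52 and 0.46 in the 2000 bases before the start, 0.58 and 1.25 in the body and 0.83 and 1.44 in the 2000 bases after the end. The Fos promoter region had −0.12 and 0.65. Fosl1, the FRA1 gene, had −0.95 and −0.28, the lowest of the list, and Jun 0.46 and −0.06. The 4 NFI genes were all above 0 and none was called, with Nfix at 0.45 and 0.33. None of 9 SOX genes was called, with Sox13 the highest at 0.42 and 0.50 and Sox4 at 0.16 and 0.21. Accessibility of a span is not expression, which these data do not measure.

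Cartilage and glial genes known with SOX9 and SOX10 were 1 of 12 higher (Gpr37l1), where 1.74% of all genes were, with a median of 0.31 and 0.26 against 0.05 and 0.07 for all genes. Against class 9, 3 of 11 were higher: Gpr37l1 (1.32 and 1.38), Col11a1, a fibrillar collagen gene (0.97 and 0.54), and Mia, a cartilage-derived protein gene (0.50 and 0.61), where 1.55% of all genes were. Against class 12 none of 10 was called either way. The list summed to 497 and 536 CPM in class 5, 527 and 521 CPM in class 12, 376 and 369 CPM in class 9, and 291 and 291 CPM in adult classes 3 and 7.

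Other lists held few calls, beside shares of 1.74% higher and 2.5% lower over all genes. Of 7 milk protein genes 3 could be tested, and Csn3 was the one called, while Csn1s1 had −0.02 and −0.03. None of 12 mammary bud genes and none of 12 Notch pathway genes was called, although Notch1, a receptor gene, had 0.48 and 0.84. Of 6 distal regions tested in Notch1 2 were called higher, where 1.99% of all were, at chr2:26471821-26472820 (1.09 and 2.16) and chr2:26487443-26488442 (1.37 and 1.27). Of 10 cell cycle genes Aurkb, the aurora B kinase gene, was higher (0.72 and 0.70), and was not called without its flanks. Of 6 oncofetal genes Igf2bp2, an RNA-binding protein gene, was lower (−0.59 and −0.73). Of 7 stromal genes Col3a1 and Twist2 were lower, of 5 immune genes Cd3e, and of 6 endothelial genes Tek. Among 7 keratinocyte genes Sbsn was higher (0.70 and 0.58) and Dsg1a lower (−0.54 and −0.87). With a pseudocount of 5, Col3a1, Cd3e, Tek and Dsg1a were no longer called. None of 8 melanocyte and Schwann genes was called.

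**Figure D5:**
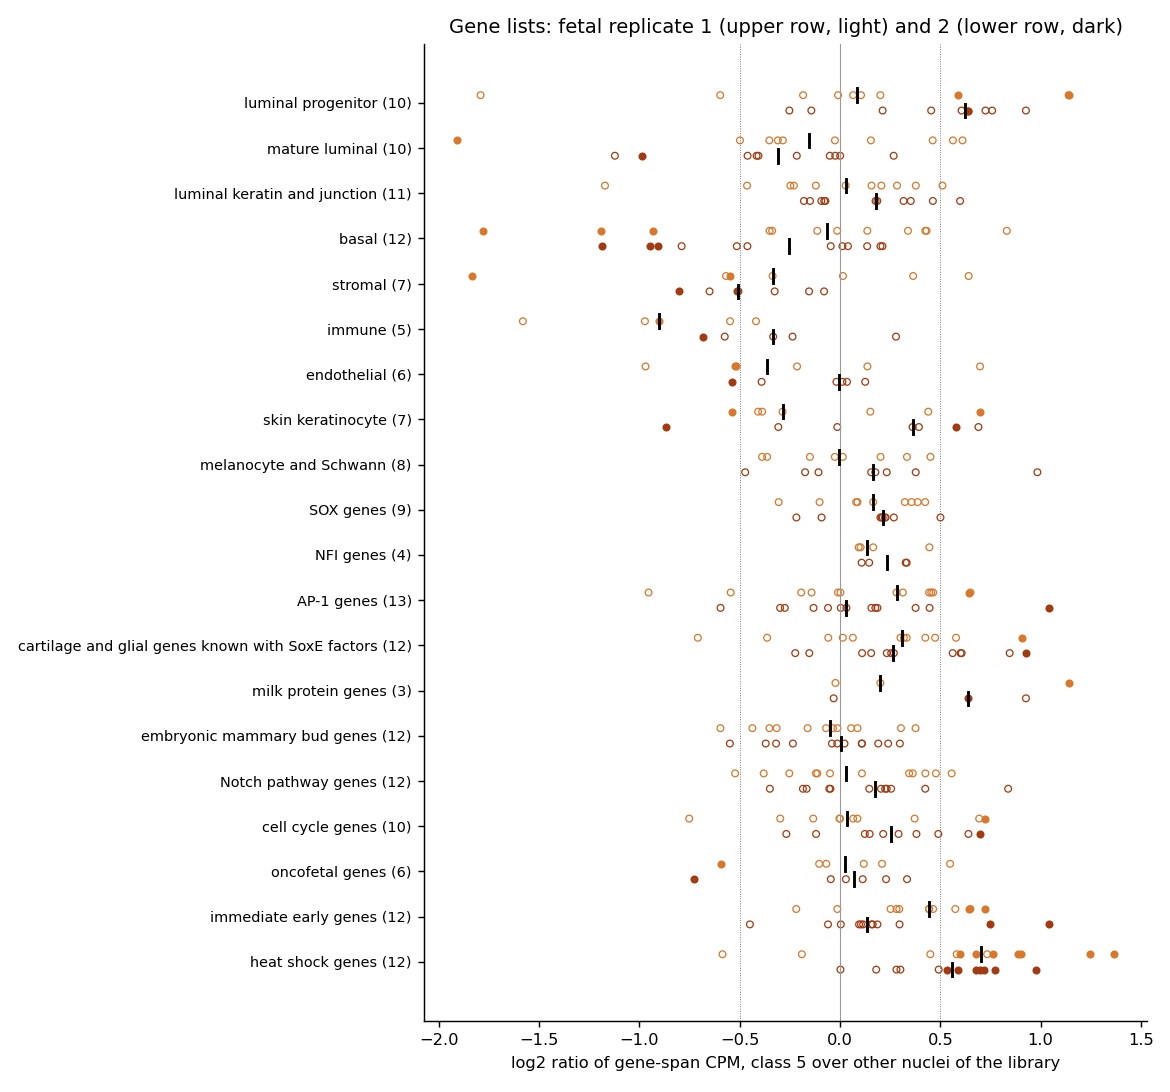
Log2 ratio of gene-span CPM, class 5 over other fetal nuclei (x axis), for each tested gene of each list (y axis, number tested in brackets), 1 point for each fetal library, filled where the gene was called; short bars are list medians and dotted lines mark 0.5 log2. The immediate early and heat shock lists were added after values were seen, and the luminal keratin list, with medians of 0.03 and 0.18, has no filled point.

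Against the adult luminal progenitor classes 3 and 7, with 0.5 log2 asked between every pair of libraries, 1103 of 15712 gene spans were higher in class 5 (7.02%) and 834 lower (5.31%). Of promoter regions 123 of 10967 were higher (1.12%) and 256 lower (2.33%). The luminal progenitor list summed to 460 and 503 CPM in class 5 and to 794 and 731 CPM in the adult classes, and the luminal keratin and junction list to 654 and 691 against 1145 and 1039 CPM. Class 5 in both fetal libraries thus had lower sums of both luminal lists than classes 3 and 7 in both adult libraries. Stage, library and class cannot be told apart in this contrast either.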

How the data were processed

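Chromatin accessibility was read from deposited positions of reads with a barcode each, for 882 and 1695 fetal and 2465 and 2804 adult nuclei (6028168 and 15801908, 13588107 and 19304830 reads). Bowtie2, MACS2, bedtools and build mm10 appear in the submitters' processing notes, with no versions; doublet removal is not given in the sources used here, and no doublet caller was run because the deposited classes were taken as they stood. The authors' deposited score table gave a motif score (chromVAR, no fixed unit) for 427 motifs, 388 distinct, with a class and a read count per nucleus; the deposited count equalled the reads listed for all 7846 nuclei, each with at least 2000. The deposited barcode lists, region lists (145453 distal, 19204 distinct promoter regions) and Cicero pair values were used as other identifiers; 7846 columns of a deposited Cicero gene table that could not be tied to a library were not used. The files carry no UMIs.

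Counts of reads touching a region or a RefSeq gene (21887, with 2000 bases either side) were summed over nuclei of a class within a library, scaled to CPM of reads in the region set (genes: of all reads) and compared after adding 2 CPM. Features with a mean of at least 20 reads were compared; the 5 highest and lowest regions and the 10 highest and lowest genes named have a mean of at least 50, while called or extreme members of each list, and regions in them, need only 20. One of the 5 lowest promoter regions is not reported here. Calls ask for the stated threshold in both fetal libraries. The call rule was also run on simulated data. No result of that run is given here, so it does not show how often calls at these thresholds and read minimums are wrong. Lists, members and rules were chosen with earlier results of these data known. No test across libraries was run, since the classes were made from the accessibility of the same nuclei; the replicate number was not used as a pairing other than that ratios were taken within a library. Python 3.11.15, numpy 2.4.6, pandas 2.3.3, scipy 1.17.1, matplotlib 3.10.9 and R 4.3.3 with edgeR 4.0.16 (TMM factors only) were used. Other pseudocounts, filters, scalings, comparison groups and thresholds were tried.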

Additional observations from a re-analysis of the deposited data

How the results depend on the processing

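No paired analysis was possible because the results come from no test, the classes having been made from these nuclei; ratios were taken within a library. Settings named without a reason were listed with the design, and the filters on CPM were chosen after seeing the data. Numbers are counts called higher and lower in class 5 against other fetal nuclei, and the cause of a move was not tested unless the setting's construction gives it. Distal regions gave 321 and 1261 with a pseudocount of 5, 2281 and 12138 with a mean of at least 1 read, 122 and 327 with at least 50 reads, 274 higher with CPM of all reads, 3 and 295 at 4-fold, 876 and 891 with at least 10 CPM, and 8 and 76 with both. Promoter regions gave 102 and 736 with at least 1 read, 4 and 26 with at least 50 reads, 43 higher against the mean of classes 4, 9 and 12, 60 lower with CPM of all reads, 0 and 21 at 4-fold, 60 higher with at least 10 CPM, and 0 and 22 with both. Gene spans gave 175 and 241 with a pseudocount of 5, 631 lower with at least 1 read, 250 lower with at least 50 reads, 172 higher with TMM, 500 higher against the mean of classes 4, 9 and 12, 2 and 46 at 1 log2, and 204 lower with at least 10 CPM. At 2 score units 0 motifs were higher. In nuclei of at least 4000 reads class 5 made up 18.9% of the fetal nuclei on average.

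Leaving out either library asks for the threshold in 1 library only, so counts rise by construction. Without replicate 1 or without replicate 2 the distal counts were 1815 to 3217 higher and 3751 to 5835 lower, the promoter counts 121 to 472 and 427 to 1167, and the gene counts 1214 to 2212 and 1166 to 2100. Against class 9 they were 913 to 1794 and 1622 to 2679 (distal), 118 to 457 and 220 to 759 (promoter) and 1064 to 2139 and 885 to 1925 (gene), with 2 motifs higher without replicate 1 and 0 without replicate 2. Against class 12 they were 530 to 1064 and 288 to 668, 240 to 886 and 94 to 580, and 2049 to 3357 and 1001 to 2058. Against class 4 they were 1242 to 1665 and 792 to 1152, 255 to 857 and 215 to 633, and 3519 to 4452 and 1314 to 2024.

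With each main result taken at each setting, 84 values moved and 66 stayed within 1.5 times or within their spread. A result can fall in both counts under different settings. The shares of windows with AP-1 or SOX letters were among the 66. Of the values of named motifs, regions and genes, 911 kept their state, called or not called. A call was lost by 74, mostly at the stricter thresholds, and gained by 25. None that was called changed sign, while changes of sign in genes and regions not called were not counted. These values leave out genes named only from lists added after values were seen or only for calls against single classes. Motifs other than the highest and lowest, and regions named only inside genes or with a sequence, are left out too. The letter search in whole distal regions was not run, for want of genome sequence.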

Other observations

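Several heat shock genes were higher in class 5, in a list added after values were seen. Of its 12 genes 7 were called higher than in the other fetal nuclei and 0 lower, where 1.74% of all genes were called higher, and the list's median log2 ratio was 0.70 and 0.56 against 0.05 and 0.07. Hspa1a and its near-identical copy Hspa1b (1.25 and 0.68) encode inducible HSP70, Hsp90aa1 (0.89 and 0.77) the inducible HSP90, Hsph1 (0.90 and 0.72) an HSP110 and Dnaja1 (0.68 and 0.53) a J-domain co-chaperone. The mitochondrial chaperone genes Hspd1 (0.60 and 0.59) and Hspe1 (0.76 and 0.70) are neighbours whose spans share reads. Hspb1, a small heat shock protein gene, had −0.59 and 0.49, and Bag3 −0.19 and 0.00. Against class 9, 6 of the 12 were higher, where 1.55% of all genes were, against class 12, 6, where 5.07% were, and against class 4, 9, where 11.7% were. Hspa1a was at 57.2 and 33.5 CPM in class 5, 22.6 and 17.0 CPM in class 9, 47.6 and 42.5 CPM in fetal class 13 and 69.1 and 48.5 CPM in fetal class 6, classes of 40 and 66 and of 23 and 33 nuclei, so it was not highest in class 5. Class 5 nuclei also had fewer reads and a larger share of them in promoter regions than the other fetal nuclei, and the part of these in the list's values was not tested.

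Of 12 immediate early genes, a second list added after values were seen, 2 were called higher, where 1.74% of all genes were: Fos and Nr4a1, a nuclear receptor gene at 130 and 113 CPM against 77.8 and 66.7 CPM (0.72 and 0.75). The list's median was 0.44 and 0.14, against 0.05 and 0.07 for all genes. Egr1 had 0.57 and 0.12, Fosb 0.44 and 0.00 and Klf6 −0.01 and −0.45, so the members were not alike in fetal replicate 2.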
